A study of Mus musculus with 15 samples.

Results

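The tumour necrosis factor (TNF) superfamily genes of mouse lung group 2 innate lymphoid cells (ILC2s) were examined on 15 arrays. Members were all genes whose own symbol begins with Tnfsf or Tnfrsf followed by a number, taken from features that carry exactly 1 gene symbol. This gave 29 genes, 9 ligands and 20 receptors, among 22180 genes with a feature of their own, and each member had 1 feature. ILC2s are tissue lymphocytes without rearranged antigen receptors that secrete IL-5 and IL-13. The arrays formed 5 groups of 3 biological replicates. Effector females and effector males were adults that received IL-33, an alarm cytokine of epithelial cells, through the nose on 3 consecutive days, with cells taken 1 day after the last dose. Neonates were 10 days old, also labelled naive, and of unlabelled sex. Naive females and naive males were adults of 8 weeks. The age of the effector adults, the strain, the markers used for cell isolation and the number of mice in a replicate were not given in the sources. No group received the carrier without IL-33, so the handling of dosed mice, or any batch aligned with the groups, cannot be told apart from IL-33 in comparisons with effector cells.

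TNF superfamily ligands are mostly membrane-bound trimers that cluster their receptors on a neighbouring cell. Receptors with a death domain, such as TNFR1 (Tnfrsf1a) and the TRAIL receptor (Tnfrsf10b), can engage cell death pathways. Receptors that bind TRAF adaptors, such as OX40 (Tnfrsf4), CD30 (Tnfrsf8), 4-1BB (Tnfrsf9) and GITR (Tnfrsf18), act as costimulators of lymphocytes and lead to NF-kappa B activation. ILC2s are known to carry GITR and DR3 (Tnfrsf25), the receptor of TL1A, and activated ILC2s can present OX40 ligand (Tnfsf4) to T cells.

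Several members lie side by side in the genome. By the order of genes in RefSeq, 9 of the 29 lie on mouse chromosome 4. No other protein-coding gene lies between Tnfrsf4 and Tnfrsf18, between Tnfrsf8 and Tnfrsf1b, or between Tnfsf8 and Tnfsf15 there. The starts of these pairs are 12.6 kb, 68.3 kb and 116.2 kb apart. Tnfsf4 and Tnfsf18 are neighbours on chromosome 1, as are Tnfrsf26, Tnfrsf22 and Tnfrsf23 on chromosome 7, and 1 protein-coding gene separates Tnfsf9 from Tnfsf14 on chromosome 17.

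Promoters of 5 chromosome 4 members are printed, among them the neighbours Tnfrsf4 and Tnfrsf18, which moved in opposite directions. They were picked with the results known and are not the 5 members with the largest differences. Between effector and naive adults Tnfrsf9 differed by 0.82, less than Tnfrsf1b, Tnfsf4, Tnfsf10 and Tnfsf13b, which are not printed. Each window runs 5′ to 3′ from 250 bases before to 50 bases after the start of the gene, from RefSeq on GRCm38.p6. A window was found for 23 of the 29 members. Capitals mark matches to an AP-1 motif (TGACTCA, or its reverse complement TGAGTCA) or to a kappa B motif (GGGA, any base, TT, any base, CC; or GGG, any 2 bases, TTTCC), searched on both strands. The GATA motif AGATAA was searched as well.
Tnfrsf8, chr4:145315115-145315414, minus strand: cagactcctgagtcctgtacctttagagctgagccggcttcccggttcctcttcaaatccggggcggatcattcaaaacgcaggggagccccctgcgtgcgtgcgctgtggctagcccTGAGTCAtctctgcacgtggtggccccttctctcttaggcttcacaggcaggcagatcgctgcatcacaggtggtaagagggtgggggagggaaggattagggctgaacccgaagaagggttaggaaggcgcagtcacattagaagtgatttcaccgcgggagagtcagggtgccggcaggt
Tnfsf8, chr4:63861235-63861534, minus strand: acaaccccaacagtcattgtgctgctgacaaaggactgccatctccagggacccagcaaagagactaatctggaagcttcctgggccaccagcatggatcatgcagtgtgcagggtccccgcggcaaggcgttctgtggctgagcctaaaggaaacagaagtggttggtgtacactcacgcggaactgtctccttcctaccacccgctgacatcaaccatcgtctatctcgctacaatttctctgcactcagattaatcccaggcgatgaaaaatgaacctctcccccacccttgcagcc
Tnfrsf9, chr4:150927749-150928048, plus strand: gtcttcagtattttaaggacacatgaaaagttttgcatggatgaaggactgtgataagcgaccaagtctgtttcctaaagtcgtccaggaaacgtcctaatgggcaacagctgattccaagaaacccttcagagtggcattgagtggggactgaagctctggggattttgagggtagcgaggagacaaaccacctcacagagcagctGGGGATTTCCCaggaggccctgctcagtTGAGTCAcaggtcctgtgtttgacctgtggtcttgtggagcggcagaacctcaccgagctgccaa
Tnfrsf4, chr4:156013445-156013744, plus strand: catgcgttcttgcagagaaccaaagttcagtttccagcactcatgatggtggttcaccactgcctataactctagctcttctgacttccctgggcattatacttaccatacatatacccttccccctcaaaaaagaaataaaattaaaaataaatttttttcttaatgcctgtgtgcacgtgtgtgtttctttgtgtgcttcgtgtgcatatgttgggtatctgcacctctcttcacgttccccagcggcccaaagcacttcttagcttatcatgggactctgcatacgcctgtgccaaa
Tnfrsf18, chr4:156026072-156026371, plus strand: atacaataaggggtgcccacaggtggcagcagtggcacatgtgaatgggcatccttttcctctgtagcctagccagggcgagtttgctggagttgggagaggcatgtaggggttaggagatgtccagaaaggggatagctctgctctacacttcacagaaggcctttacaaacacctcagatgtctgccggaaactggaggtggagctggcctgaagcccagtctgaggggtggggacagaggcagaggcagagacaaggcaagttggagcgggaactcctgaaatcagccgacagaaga

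The Tnfrsf8 window holds an AP-1 match at position -132 from the gene's start. The Tnfrsf9 window, chosen from its 2 annotated windows because it holds matches, has overlapping kappa B matches at positions -43 and -42 and an AP-1 match at -15. The windows of Tnfsf8, Tnfrsf4 and Tnfrsf18 hold none of these letters. An AP-1 match was present in 5.20% of 32851 mouse promoter windows of this length, a kappa B match in 2.34% and a GATA match in 11.2%. Among the other members, Tnfrsf25 held a kappa B match, Tnfsf13b and Tnfsf14 an AP-1 match, and Tnfsf13b a GATA match. A match describes the letters of the window and is not a binding site.

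Most family members gave signal in at least 1 group. All levels are log2 values as deposited, after RMA, an array method that normalizes across arrays. Since probes differ in brightness, levels are compared between groups for 1 gene and never between genes. A member was taken as above background in a group when its mean exceeded the upper quartile of 387 olfactory and vomeronasal receptor genes. These were the ones, of 1394, that passed the filter on dim genes. The quartile lay at 4.41 in effector females, 4.30 in effector males, 4.68 in neonates, 5.03 in naive females and 5.43 in naive males. By this measure 25 of 29 members were above background in at least 1 group and 14 in all 5. Effector females and effector males each had 24 members above background, neonates 22, naive females 17 and naive males 14. The background level itself was higher in naive cells. Members at or below background in all groups were Tnfrsf13b (TACI) and Tnfrsf17 (BCMA), receptors of B-lineage cells, Tnfrsf19 (TROY) and Tnfsf18 (GITR ligand), and they are marked as not detected. Tnfrsf13b and Tnfsf18 also failed the filter on dim genes, which left 27 tested members. Of these, 14 were called in at least 1 of the 6 comparisons, against 42.5% of all tested genes.

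**Figure D1:**
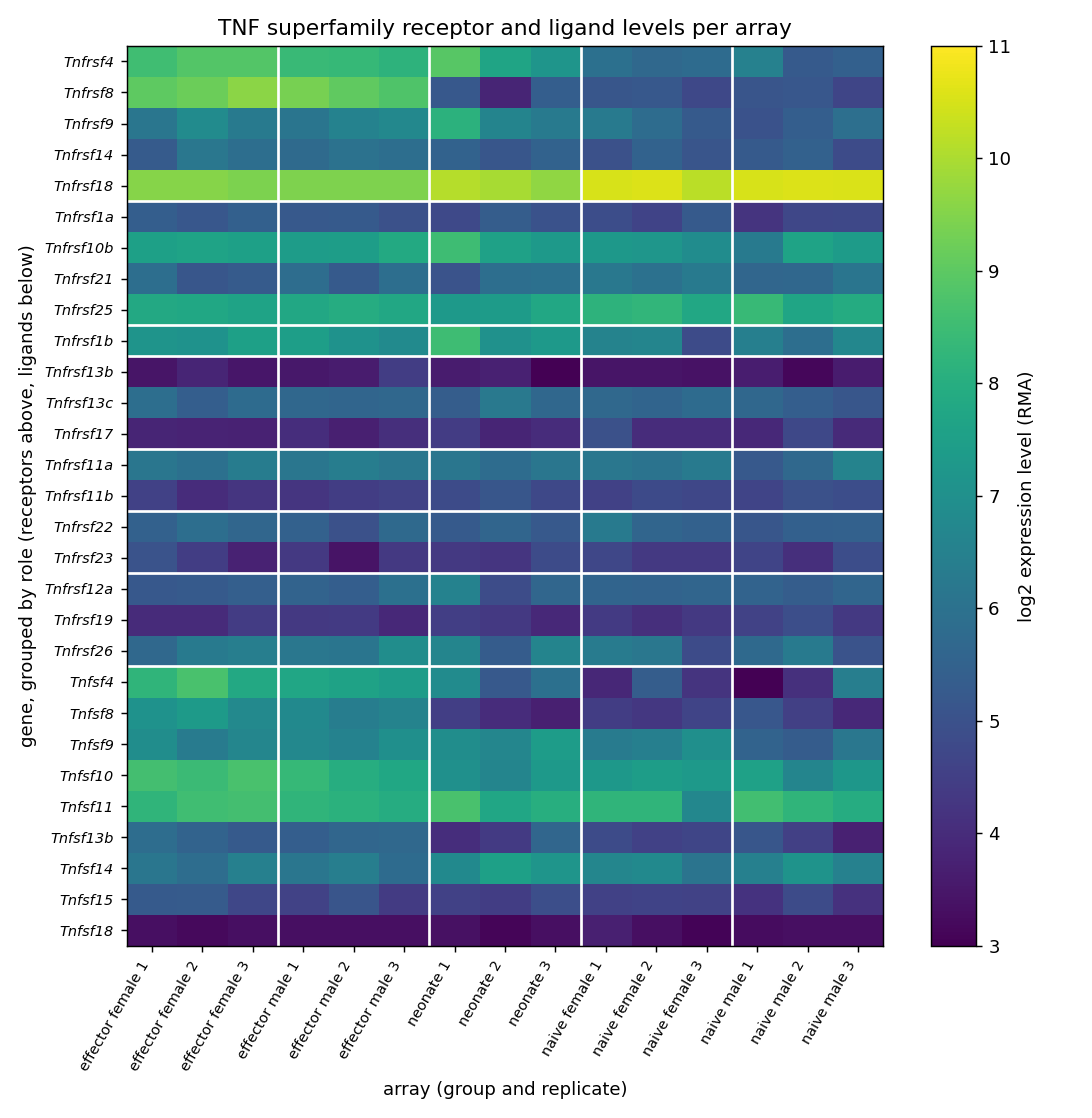
Log2 level of the 29 members (rows, grouped by role) on each of the 15 arrays (columns, ordered effector females, effector males, neonates, naive females, naive males), with colour giving the level. Colours are comparable along a row but not between rows, since rows are different probes, and the Tnfrsf8, Tnfsf8 and Tnfsf4 rows are brightest in the 6 effector columns.

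Array medians were 4.44 to 4.50 in effector cells, 4.50 to 4.63 in neonates and 4.56 to 4.64 in naive cells. Every effector median thus lay below every naive one. Arrays of a group correlated at r = 0.962 to 0.974 in effector cells, 0.904 to 0.925 in neonates and 0.911 to 0.960 in naive cells. All 11 ILC2 markers with a feature of their own, among them Gata3, Il7r, Klrg1 and Il13, were above background in every group. Of 2 regulatory T cell markers, Foxp3 was within background in all groups and Ikzf2 above it in all. T cell markers above background numbered 4 or 5 of 7 in effector cells, 4 in neonates and 2 in naive cells. Mast cell and basophil markers numbered 3 of 5 in effector cells and neonates and 2 in naive cells. Macrophage and monocyte markers were at 1 of 8 in every group, and neutrophil and eosinophil markers at 0 of 6. Over the 5 groups, B cell and plasma cell markers numbered 2 or 3 of 7, dendritic cell markers 0 to 3 of 4, NK and ILC1 markers 0 or 1 of 5, endothelial markers 1 to 3 of 5, epithelial markers 1 to 5 of 5 and fibroblast markers 0 to 2 of 5.

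Effector ILC2s had far more CD30, OX40 and transcripts of both their ligands than naive adult ILC2s, and less GITR by its own feature. Of the 27 tested members, 13 were called at an adjusted p under 0.05 (limma, Benjamini-Hochberg over 16257 genes), against 34.6% of all tested genes. Higher in effector cells were 11 members (23.7% of all genes were called higher) and lower were 2 (10.9% were called lower). Ligands accounted for 5 of the 11, out of 8 tested, and receptors for 6, out of 19 tested. The median difference over the tested members was 0.41 on the log2 scale, against 0.03 over all tested genes. The arrays of the 6 effector and 6 naive samples did not overlap for 7 members that were higher (15.2% of all genes) and 1 that was lower (4.93%). In such bulk samples, more or fewer cells of a type and more or less RNA in each cell cannot be told apart.

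CD30 (Tnfrsf8), a costimulatory receptor of activated lymphocytes, differed most. Its log2 level was 8.79 to 9.62 with a median of 9.12 on the 6 effector arrays, and 4.66 to 5.20 with a median of 5.13 on the 6 naive arrays. All effector arrays thus lay far above all naive arrays, and both naive groups lay within background. The difference was 4.17 ± 0.23 (SE, adjusted p = 3.89e-09), a 17.96-fold higher level that counts from a background level in naive cells, and it ranked 12 among the rises of the 16257 tested genes. CD30 ligand (Tnfsf8) had 6.39 to 7.36 with a median of 6.79 in effector cells, against 3.91 to 5.17 with a median of 4.48 in naive cells. The ligand too lay within background in both naive groups and rose by 2.34 ± 0.20 from that level (adjusted p = 4.18e-07). Receptor and ligand of this pair were both above background on average in effector females and males.

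OX40 (Tnfrsf4), a costimulatory receptor best known from activated T cells, was above background in every group. Its level was 8.18 to 8.85 with a median of 8.49 in effector cells, against 5.26 to 6.52 with a median of 5.74 in naive cells. It rose by 2.76 ± 0.26 (adjusted p = 1.27e-06), or 6.76-fold. OX40 ligand (Tnfsf4) had 7.43 to 8.71 with a median of 7.79 in effector cells, against 3.03 to 6.43 with a median of 4.15 in naive cells. The naive values were widely spread, with naive male 3 at 6.43 and naive male 1 at 3.03, yet every effector array lay above them, and both naive groups lay within background. The ligand rose by 3.42 ± 0.46 (adjusted p = 4.09e-05), a difference that counts from a background level.

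GITR (Tnfrsf18), a costimulator known from regulatory T cells and ILC2s, moved the other way. Its level was 9.42 to 9.54 with a median of 9.46 in effector cells, against 10.19 to 10.58 with a median of 10.53 in naive cells. The effector arrays lay close together and below all naive arrays. The difference was -1.01 ± 0.11 (adjusted p = 6.91e-06), a level 2.02-fold lower in effector cells. Another feature, which names Tnfrsf18 together with Gm16008 and was used in no comparison, did not show this fall. Its median was 5.70 in effector and in naive cells, with overlapping ranges. By its own feature Tnfrsf18 thus fell where its immediate neighbour Tnfrsf4 rose, and their printed promoters hold none of the searched motifs. Of both regulatory T cell markers, Foxp3 was within background in effector and naive cells, while Ikzf2 was above it and differed by -0.24 (adjusted p = 0.244). The part of regulatory T cells in this difference was not tested.

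**Figure D2:**
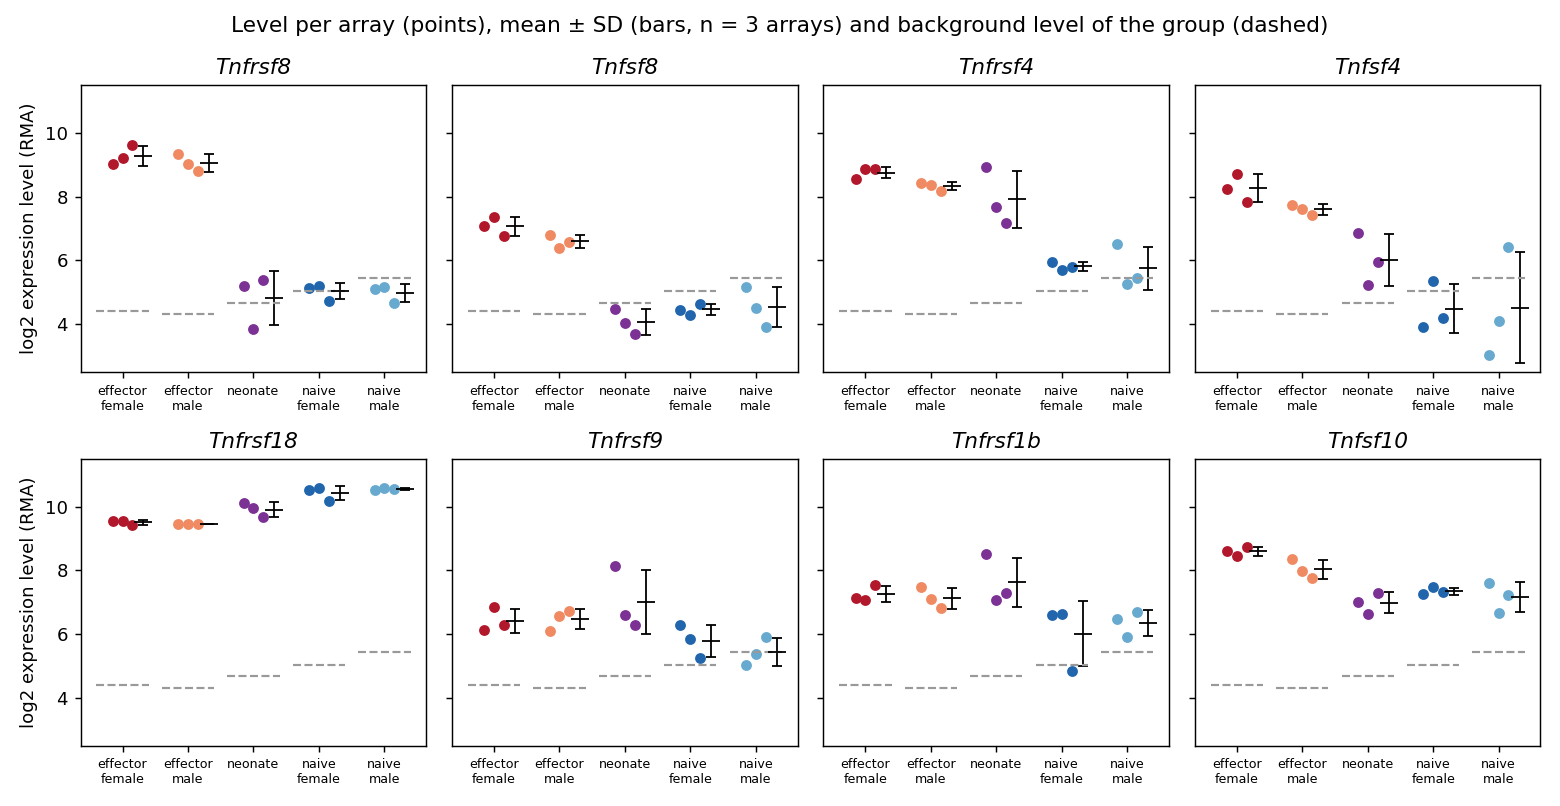
Log2 level of 8 members on every array, with 1 point per array, the mean and SD of each group (n = 3 arrays) beside the points, the group's background level dashed, and groups ordered effector females, effector males, neonates, naive females and naive males. Tnfrsf8 lies between 8.79 and 9.62 on the effector arrays and at or below 5.40 on all neonatal and naive arrays, while Tnfrsf4 is high in effector cells and in neonates.

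Other costimulatory receptors had smaller differences. 4-1BB (Tnfrsf9) had 6.11 to 6.85 with a median of 6.41 in effector cells, against 5.03 to 6.28 with a median of 5.61 in naive cells. The ranges overlapped and the rise of 0.82 ± 0.29 (adjusted p = 0.0382) was lost without any 1 of effector females 2 and 3, effector males 2 and 3, naive females 2 and 3, or naive males 1 and 2 (adjusted p = 0.0554 to 0.0962). HVEM (Tnfrsf14), the receptor of LIGHT and BTLA, had 5.29 to 6.16 with a median of 5.89 in effector cells, against 4.83 to 5.53 with a median of 5.19 in naive cells. It rose by 0.64 ± 0.17 (adjusted p = 0.00858), and it was within background in naive males. With neonate 2, naive male 1 and naive male 3 left out, the 3 arrays with the lowest correlation to their groups, the difference was 0.49 (adjusted p = 0.0604).

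Both receptors of TNF itself were higher in effector cells. TNFR2 (Tnfrsf1b), the TRAF-binding TNF receptor of lymphocytes, had 6.82 to 7.55 with a median of 7.11, against 4.84 to 6.70 with a median of 6.52 in naive cells. The groups did not overlap and the rise was 1.00 ± 0.31 (adjusted p = 0.0208). Leaving out effector female 3, effector male 1 or naive male 2 gave 0.89 to 0.93 with adjusted p = 0.0512 to 0.0518. TNFR1 (Tnfrsf1a) had 4.99 to 5.46 with a median of 5.25 in effector cells, against 4.21 to 5.27 with a median of 4.72 in naive cells, where it lay within background. It rose by 0.51 ± 0.15 (adjusted p = 0.0162), and by 0.43 without those 3 arrays, which missed the threshold (adjusted p = 0.0515).

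The other death domain receptors were above background in all 5 groups and were not called. DR3 (Tnfrsf25) averaged 7.75 ± 0.09 in effector females and 7.84 ± 0.10 in effector males, against 8.07 ± 0.25 in naive females and 8.00 ± 0.34 in naive males (SD, n = 3 each). The interval of its difference ran from -0.54 to 0.06 (95%). The TRAIL receptor Tnfrsf10b differed by 0.46 (interval -0.03 to 0.96) and DR6 (Tnfrsf21) by -0.43 (interval -0.83 to -0.03, adjusted p = 0.0922).

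RANK (Tnfrsf11a), the receptor of RANK ligand, was above background in all groups and differed by 0.19 (interval -0.20 to 0.57, adjusted p = 0.454). Osteoprotegerin (Tnfrsf11b), the soluble decoy of RANK ligand, had 4.03 to 4.58 with a median of 4.34 in effector cells, against 4.56 to 4.996 with a median of 4.75 in naive cells. Its fall of 0.43 ± 0.13 on the log2 scale (adjusted p = 0.0179) stood on levels within background in effector females and in both naive groups. With the medians of all arrays set equal it was -0.29 with adjusted p = 0.0826, and without effector female 2 it was -0.37 with adjusted p = 0.0530. The BAFF receptor Tnfrsf13c, the TRAIL decoys Tnfrsf22 and Tnfrsf23, Fn14 (Tnfrsf12a), which binds TWEAK, and Tnfrsf26 differed by -0.28 to 0.54 and were not called. The undetected but tested Tnfrsf17 and Tnfrsf19 differed by -0.40 and -0.27 and were not called.

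Among the remaining ligands, TRAIL (Tnfsf10), which can trigger death in target cells, was above background in every group. It had 7.75 to 8.72 with a median of 8.398 in effector cells, against 6.65 to 7.59 with a median of 7.29 in naive cells. The groups did not overlap, and it rose by 1.06 ± 0.17 (adjusted p = 0.000194). BAFF (Tnfsf13b), a B cell survival factor, had 5.27 to 5.87 with a median of 5.59 in effector cells, against 3.72 to 5.14 with a median of 4.61 in naive cells, where it lay within background. It rose by 1.00 ± 0.26 (adjusted p = 0.00758) with no overlap of arrays.

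4-1BB ligand (Tnfsf9), a costimulatory ligand, had 6.33 to 6.98 with a median of 6.70 in effector cells, against 5.32 to 6.98 with a median of 6.25 in naive cells. The groups overlapped and its rise of 0.56 ± 0.18 (adjusted p = 0.0273) was lost without any 1 of effector females 1 and 3, effector male 3, naive females 1 and 2, or naive males 1 and 2 (adjusted p = 0.0533 to 0.0699). RANK ligand (Tnfsf11) averaged 8.46 ± 0.20 in effector females and 8.10 ± 0.13 in effector males, against 7.72 ± 0.87 in naive females and 8.25 ± 0.32 in naive males (SD, n = 3 each). It was above background in all groups, and its difference of 0.29 had an interval from -0.23 to 0.81. LIGHT (Tnfsf14), the ligand of HVEM, differed by -0.47 (adjusted p = 0.0633) and TL1A (Tnfsf15) by 0.41 (adjusted p = 0.0768), the second of these within background in naive cells.

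**Figure D3:**
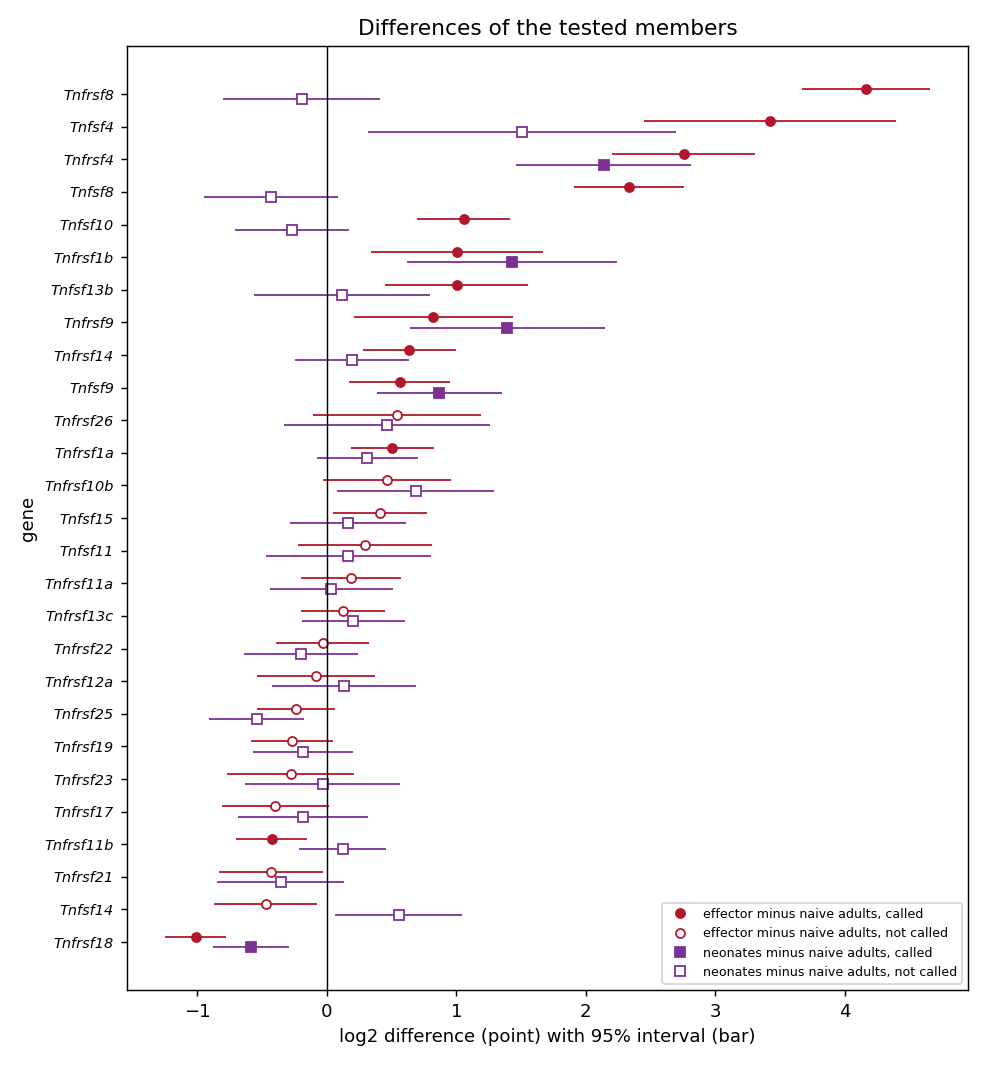
Log2 difference of each of the 27 tested members, with its 95% interval, for effector minus naive adults (circles) and neonates minus naive adults (squares), with filled symbols for members called at an adjusted p under 0.05. Tnfrsf8 lies at 4.17 for effector minus naive and at -0.19 for neonates minus naive, while Tnfrsf4 lies at 2.76 and 2.14.

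No member differed between the sexes by the test over all genes. The response of females minus that of males to IL-33 gave 0 calls among the 27 members and 0% of all genes (limma), with 1 member and 866 genes at an unadjusted p under 0.05. That member was Tnfsf9, whose response differed by -1.02 (interval -1.81 to -0.24, adjusted p = 0.867). In naive cells Tnfsf9 averaged 6.59 ± 0.34 in females and 5.68 ± 0.43 in males (SD, n = 3 each), a difference of 0.92 with every female array above every male array (10.1% of all genes). It did not pass the test (adjusted p = 0.226), as 0 members and 0.209% of all genes did in naive cells, and it was the 1 member at an unadjusted p under 0.05. In effector cells 0 members and 0.0308% of all genes were called.

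In effector cells 4 members had every female array above every male array, namely Tnfrsf4, Tnfsf4, Tnfsf10 and Tnfsf11, against 6.02% of all genes. OX40 was at 8.55, 8.85 and 8.85 in effector females and at 8.43, 8.35 and 8.18 in effector males. Its difference of 0.43 had an interval from -0.35 to 1.21. That interval rests on 1 spread for all 5 groups, though the groups differed in spread. The SD of OX40 was 0.18 in effector females, 0.13 in effector males and naive females, 0.68 in naive males and 0.90 in neonates. TRAIL averaged 8.59 ± 0.14 in effector females and 8.03 ± 0.30 in effector males, a difference of 0.57 (adjusted p = 1.00) and the only member at an unadjusted p under 0.05 there. For CD30 the difference between the responses of the sexes was 0.17 (interval -0.82 to 1.16), and for OX40 ligand it was 0.70 (interval -1.24 to 2.64).

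Neonatal ILC2s carried more OX40, 4-1BB, TNFR2 and 4-1BB ligand transcripts than naive adult ILC2s. They had less GITR by its own feature, while CD30 and its ligand were near background. Of the 27 tested members, 5 were called (10.2% of all tested genes), 4 higher (6.04% of all genes) and 1 lower (4.12%). In a limma fit of the neonatal and naive arrays alone, without the effector arrays, only OX40 kept its call. There 4-1BB, TNFR2, 4-1BB ligand and GITR had adjusted p = 0.079 to 0.098. Neonatal and naive arrays did not overlap for 2 of the members that were higher, OX40 and TNFR2 (6.88% of all genes), and for GITR, which was lower (4.10%). The median difference over the tested members was 0.13, against 0.02 over all tested genes. Age, sex composition and any batch that follows the groups cannot be told apart here.

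OX40 (Tnfrsf4) was at 8.92, 7.67 and 7.17 in neonates, against 5.26 to 6.52 in naive adults, with no overlap. It rose by 2.14 ± 0.32 (adjusted p = 0.000614), 4.40-fold, and ranked 44 among the rises of all tested genes. Neonate 1, at 8.92, lay above every adult array, and OX40 kept its call in all 28 alternatives, among them those without each array in turn.

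4-1BB (Tnfrsf9) was at 8.15, 6.61 and 6.27 in neonates, against 5.03 to 6.28 in naive adults. It rose by 1.39 ± 0.35 (adjusted p = 0.0218), but without neonate 1 the difference was 0.82 (adjusted p = 0.114). TNFR2 (Tnfrsf1b) was at 8.50, 7.30 and 7.06 in neonates, against 4.84 to 6.70 in naive adults, and rose by 1.43 ± 0.38 (adjusted p = 0.0274). Neonate 1 held the 8.50, and without it the difference was 0.99 (adjusted p = 0.150), as it was 1.32 without naive male 2 (adjusted p = 0.0509). Neonate 1 was thus the highest neonatal array for OX40, 4-1BB and TNFR2, and also for OX40 ligand and the TRAIL receptor.

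4-1BB ligand (Tnfsf9) was at 6.94, 6.67 and 7.41 in neonates, against 5.32 to 6.98 in naive adults. It rose by 0.87 ± 0.23 (adjusted p = 0.0241), but was not called without neonate 1, neonate 3 or naive female 1 (adjusted p = 0.0507 to 0.103). Against naive females alone, its difference was 0.41 (adjusted p = 0.406). GITR (Tnfrsf18) was at 9.66, 9.94 and 10.11 in neonates, below the 10.19 to 10.58 of naive adults, and fell by 0.58 ± 0.14 on the log2 scale (adjusted p = 0.0139). Without neonate 3 this was -0.46 with adjusted p = 0.0582. The feature that names Tnfrsf18 together with Gm16008 went the other way. It was at 5.9999 to 6.78 in neonates, above the 5.41 to 5.99 of naive adults, and was used in no comparison.

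OX40 ligand (Tnfsf4) was at 6.86, 5.23 and 5.94 in neonates, above background, and at 3.03 to 6.43 in naive adults. These ranges overlapped and the difference of 1.51 ± 0.56 was not called (adjusted p = 0.102). CD30 (Tnfrsf8) was at 5.19, 3.84 and 5.40 in neonates and differed from naive adults by -0.19 (interval -0.80 to 0.41). CD30 ligand (Tnfsf8) was within background in both and differed by -0.43 (interval -0.95 to 0.09). DR3 (Tnfrsf25) averaged 7.49 ± 0.27 in neonates (SD, n = 3), and its difference of -0.54 ± 0.17 missed the threshold (adjusted p = 0.0596). The other uncalled members differed by -0.36 to 0.69.

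The effector and neonatal comparisons share the naive arrays, so their values are set side by side without a test. The 5 members called in neonates were also called in effector cells (6.68% of all genes were called in both). Among all genes, 1086 of the 1652 called in neonates were also called in effector cells. Of the 27 members, 8 were called in effector cells but not in neonates (27.9% of all genes). OX40 stood 2.76 above naive adults in effector cells and 2.14 in neonates, GITR stood at -1.01 and -0.58, and TNFR2 at 1.00 and 1.43. CD30 stood at 4.17 in effector cells and -0.19 in neonates.

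The direct comparison of neonates with effector adults tests these differences. Neonates had far less CD30 and CD30 ligand, less OX40 ligand and TRAIL, and more GITR, LIGHT and osteoprotegerin. Of the 27 tested members, 7 were called (20.6% of all genes), 3 higher in neonates (5.93% of all genes) and 4 lower (14.7%). The arrays of the 2 groups did not overlap for any of the 7, against 7.92% of all genes that were higher without overlap and 16.2% that were lower. The median difference over the tested members was -0.08, against -0.03 over all tested genes.

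CD30 was at 5.19, 3.84 and 5.40 in neonates, against 8.79 to 9.62 in effector adults. It fell by 4.36 ± 0.28 on the log2 scale (adjusted p = 6.32e-07), a 20.5-fold lower level and rank 1 among the falls of all 16257 tested genes. CD30 ligand was at 3.69, 4.02 and 4.48 in neonates, against 6.39 to 7.36 in effector adults, and fell by 2.76 ± 0.24 (adjusted p = 5.08e-06), rank 19 among the falls. Since the ligand lay within background in neonates, this fall is measured to a background level. CD30 averaged 4.81 in neonates, just above their background level of 4.68, so its fold and rank are measured to near background. The neonatal arrays of both genes lay below every effector array.

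OX40 ligand fell by 1.92 ± 0.56 (adjusted p = 0.0248), with neonates at 6.86, 5.23 and 5.94 against 7.43 to 8.71 in effector adults. It was not called without neonate 2, neonate 3 or effector female 2 (adjusted p = 0.0540 to 0.136). TRAIL (Tnfsf10) was at 6.64 to 7.30 in neonates, against 7.75 to 8.72 in effector adults, and fell by 1.33 ± 0.21 (adjusted p = 0.000500). BAFF (Tnfsf13b) differed by -0.88 and was not called (adjusted p = 0.0612).

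LIGHT (Tnfsf14), a ligand known to costimulate T cells through HVEM, was the member with the highest rise in neonates over effector adults. It was at 6.80 to 7.53 with a median of 7.17 in neonates, against 5.81 to 6.48 with a median of 6.14 in effector adults. The groups did not overlap and it rose by 1.03 ± 0.23 (adjusted p = 0.00590). It was the only member called in this comparison and not against naive adults, whose range of 6.07 to 7.11 overlapped both groups. GITR, at 9.66 to 10.11 in neonates and 9.42 to 9.54 in effector adults, rose by 0.43 ± 0.14 (adjusted p = 0.0379). That call was lost without neonate 1, neonate 2 or any 1 of the 6 effector arrays (adjusted p = 0.0572 to 0.153). Osteoprotegerin, at 4.73 to 5.13 in neonates and 4.03 to 4.58 in effector adults, rose by 0.55 ± 0.16 (adjusted p = 0.0227), but it was not called without neonate 2 or effector female 2 (0.43 and 0.49, adjusted p = 0.116 and 0.0530).

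OX40 itself differed by -0.62 between neonates and effector adults, with an interval from -1.29 to 0.06 (adjusted p = 0.183). The neonatal range of 7.17 to 8.92 covered the effector range of 8.18 to 8.85 and was wider. 4-1BB differed by 0.57 (interval -0.18 to 1.33) and TNFR2 by 0.43 (interval -0.38 to 1.24), and neither was called. For these 3 receptors, a difference between neonates and effector adults was not resolved with 3 neonatal arrays.

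Marker levels of other cells differed between neonates and adults for some lists and overlapped for others. Age, sex composition, any batch and, against effector adults, IL-33 cannot be told apart here. The dendritic cell sum was 17.8 to 18.4 in neonates and 18.2 to 19.7 in naive adults. The endothelial sum was 25.3 to 26.2 in neonates and 24.0 to 29.8 in naive adults. The summed log2 level of the 5 mast cell and basophil markers was 32.8 to 35.5 in neonates, against 28.0 to 31.9 in effector adults and 29.8 to 30.7 in naive adults. Its members Fcer1a and Ms4a2 were within background in all groups, while Cpa3 was higher in neonates than in naive adults by 2.43. The summed level of 7 T cell markers was 39.7 to 40.9 in neonates, against 35.4 to 37.5 in effector adults and 37.9 to 39.7 in naive adults. The neonatal and naive ranges of this sum overlapped. Of both regulatory T cell markers, Foxp3 was within background in all groups, and Ikzf2 was higher in neonates by 0.86 than in effector adults and by 0.63 than in naive adults. The sum of 5 fibroblast markers was 20.8 to 21.2 in neonates, above the 17.99 to 18.8 of effector adults and the 18.1 to 20.01 of naive adults. Its members Pdgfra, Dcn and Lum were within background in all groups and were not tested. Of the 2 tested, 0 were called against naive adults (10.2% of all genes) and 2 were called higher against effector adults (5.93%). The sum of 5 epithelial markers was 26.2 to 28.4 in neonates, against 22.6 to 26.8 in effector adults and 23.7 to 27.2 in naive adults. Its member Sftpc was higher in neonates by 2.67 than in effector adults and by 1.98 than in naive adults. Of the 5, 1 was called higher and 0 lower against either adult state (5.93% and 6.04% of all genes were called higher). Sftpb and Cdh1 averaged 4.46 and 5.71 in neonates, below naive females (4.90 and 6.08) and naive males (4.74 and 5.76). In effector cells more T cell markers were above background than in naive cells, where the background level itself was higher. By level their sum was lower in effector cells. Of the 7, 0 were called higher and 2 lower in effector than in naive cells, against 23.7% and 10.9% of all genes. The part of these cells in the neonatal and effector differences was not tested.

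Among family members whose symbols fall outside the pattern, effector cells had less of the ligands TNF and lymphotoxin beta. Of 6 tested ligands, 1 was higher and 2 were lower in effector than in naive cells, against 23.7% and 10.9% of all genes. Tnf, the founding inflammatory ligand, had 6.72 to 8.05 with a median of 7.24 in effector cells, against 8.51 to 9.77 with a median of 9.27 in naive cells, a fall of 1.93 ± 0.30 (adjusted p = 0.000154). The TNF gene thus fell where both TNF receptor genes rose. Ltb, part of the membrane lymphotoxin ligand, was at a median of 9.65 in effector cells and 11.17 in naive cells, with no overlap. Cd70, the ligand of CD27, was at 4.83 to 5.24 in effector cells, against 2.52 to 3.58 in naive cells, where it lay within background, and rose by 1.81 ± 0.18 (adjusted p = 1.80e-06).

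Of 7 tested receptors outside the pattern, Fas was higher and Cd27 lower, against the same 23.7% and 10.9% of all genes. Fas, a death domain receptor, was at 6.71 to 7.21 in effector cells, against 4.29 to 5.71 in naive cells, a rise of 1.72 ± 0.20 (adjusted p = 1.47e-05). In naive males it lay within background. Cd27, a costimulatory receptor, was at 5.41 to 5.74 in effector cells, against 6.09 to 7.01 in naive cells, a fall of 0.93 ± 0.17 (adjusted p = 0.000788). Neonates differed from naive adults in 0 of the 6 ligands and in 2 of the 7 receptors, against 10.2% of all genes. Cd27 differed by -0.75 in neonates but lost its call without any 1 of the 3 neonates, naive males 1 and 3, naive female 1 or 5 of the effector arrays (adjusted p = 0.0506 to 0.144), and was at -0.32 without neonate 2, naive male 1 and naive male 3 (adjusted p = 0.374). Cd40 differed by -0.47 and lost its call without neonate 1 or neonate 3 (adjusted p = 0.0681 and 0.0540). It lay within background in neonates and in both naive groups. Against effector adults, 3 of these 13 genes were higher in neonates, Tnf by 1.36, Ltb by 0.87 and Ltbr by 0.70 (5.93% of all genes). Lower were 2, Cd70 and Fas, which differed by -1.58 and -2.42 (14.7% of all genes). Both of these lay within background in neonates. Without neonate 3 Tnf was at 0.72 (adjusted p = 0.0664) and Ltb at 0.70 (adjusted p = 0.0569), and without neonate 2 Ltbr was at 0.56 (adjusted p = 0.0529).

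**Figure D4:**
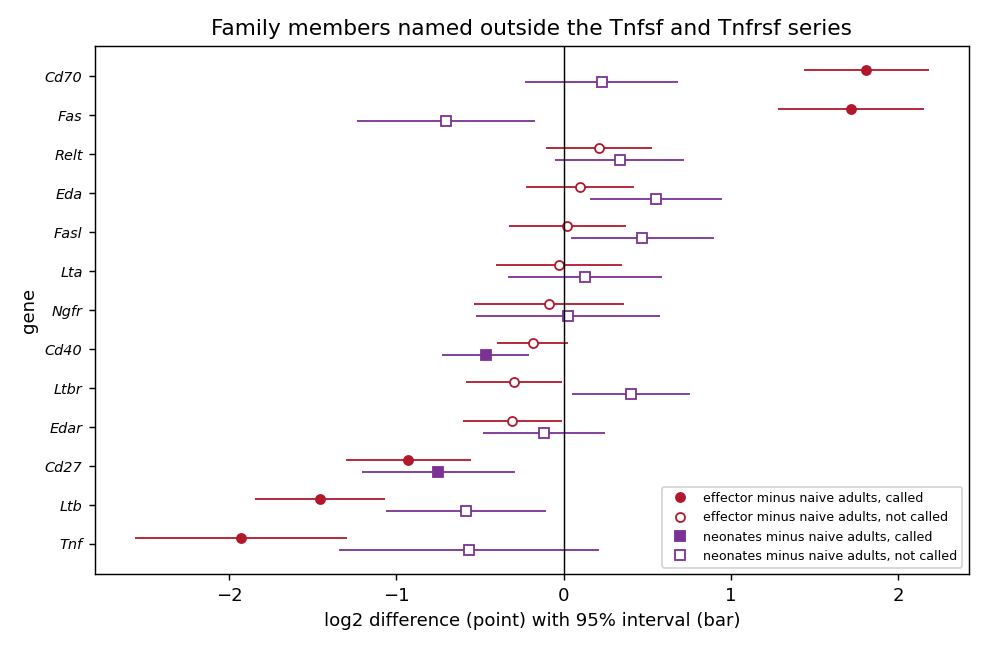
Log2 difference, with its 95% interval, of the 13 tested TNF family genes outside the symbol pattern, for effector minus naive adults (circles) and neonates minus naive adults (squares), with filled symbols for genes called at an adjusted p under 0.05. Tnf and Ltb lie below 0 and Cd70 and Fas above 0 for effector minus naive.

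Genes of the signalling pathway downstream of the receptors were also followed. Of 24 tested adaptors, ubiquitin ligases, kinases and death regulators, 7 were higher and 1 was lower in effector than in naive cells, against 23.7% and 10.9% of all genes, with a median difference of 0.24. Traf4, a TRAF adaptor, rose by 1.09, Cflar, which encodes the caspase-8 inhibitor cFLIP, by 0.81, Traf6 by 0.80 and the deubiquitinase gene Otulin by 0.77. Traf6 was at 0.46 without neonate 2, naive male 1 and naive male 3 and lost its call (adjusted p = 0.0765). The kinase gene Ikbkb fell by 0.38, a call lost without any 1 of 6 arrays (effector females 1 and 2, effector male 3, naive females 1 and 2, and naive male 2) and with the medians of all arrays set equal (-0.24, adjusted p = 0.149). Neonates differed from naive adults in Birc2 alone among these 24, which encodes the ubiquitin ligase cIAP1 and rose by 0.69 (10.2% of all genes were called). That call was lost without neonate 1 (0.53, adjusted p = 0.121) or neonate 2 (0.66, adjusted p = 0.0634). Against effector adults, neonates had more of the NF-kappa B inhibitor gene Tnfaip3 by 0.69 and less of 4 genes, with Tradd at -0.86 and Otulin at -0.83 (20.6% of all genes were called). Without neonate 1 Tradd was at -0.69 (adjusted p = 0.0607).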

How the data were processed

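Total RNA from lung ILC2s of 15 biological replicates was extracted with Trizol and labelled with the Nugen Encore biotin kit for Affymetrix arrays, per the labels' protocols. The deposited values are log2 expression levels made with Affymetrix Expression Console and RMA, per the submitters' processing notes, with versions not given in the sources used here. RMA normalizes across arrays, so a shift common to most genes would be reduced or removed before deposition. The number of arrays limits the precision. Replicates are called biological in the labels, and whether each was 1 mouse or a pool is not given.

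Of 41345 features, 23521 named 1 gene, 1814 several and 16010 none, by GEO's platform annotation. Gene identifiers of 23328 were found in RefSeq and 0 symbols changed. For the 695 genes with more than 1 feature, that with the highest mean was used. Testing required a level above percentile 40 of the array on 3 or more arrays, which left 16257 genes. Left out were 2 features that name a member together with other genes. Tnfsf12 and Tnfsf13 had no feature of their own.

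Group means were estimated over the 15 arrays in 1 linear model (limma 3.58.1, R 4.3.3), and variances were moderated by empirical Bayes with 10 residual and 5.05 prior degrees of freedom. The 6 comparisons, with the sexes of adults weighted equally, were two-sided, with Benjamini-Hochberg adjustment over 16257 genes and calls made below 0.05. Errors beside differences are moderated standard errors of this fit. Every member is named, with array values for those called in at least 1 comparison. From each other gene list, up to 4 called genes with the largest difference were taken for each comparison. Members and lists were chosen with earlier results of these data known. On simulated arrays of 16257 genes with 100 genes moved by 1 log2 unit, 75 were recovered for effector against naive adults, 74 for neonates against naive adults and 76 for neonates against effector adults. Moved by 2 log2 units, 99, 98 and 97 of 100 were recovered. For females against males, 56 of 100 genes moved by 1 log2 unit were recovered in naive cells, 59 in effector cells and 25 for the difference of responses. The simulation gave each gene the same spread in all groups. Since the real groups differed in spread, it does not show how recovery differs between groups. Deviations of same-numbered arrays from their group means correlated at -0.11 to 0.0991 over 30 pairs of groups and numbers. Differently numbered arrays were not set beside them, so whether replicate numbers pair the samples was not settled. Alternatives changed the dim filter, scaling, prior, array weights, feature choice, fold threshold and the arrays used.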

Additional observations from a re-analysis of the deposited data

Results flagged for a closer look

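In sets of 6 effector or 6 naive arrays, 58 sets over the 29 members were searched for an array standing apart by Dixon's 95% criterion, and 4 were found. Chance gives about 1 in 20. Tnfrsf18 (GITR) was at 10.19 on naive female 3, below the other naive arrays. Tnfsf11 (RANK ligand) was at 6.72 on naive female 3, also the lowest naive value. Tnfrsf12a (Fn14) was at 5.35 on naive male 2. Tnfsf18 (GITR ligand), not detected in any group, was at 3.20 on effector female 2, with the other effector arrays at 3.32.

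A feature that names Tnfrsf18 together with Gm16008 was used in no comparison. It had a median of 6.04 in neonates (5.9999 to 6.78), against 5.70 in naive adults (5.41 to 5.99), so the arrays did not overlap. In effector cells its median was 5.70 (5.23 to 5.94), which overlapped the naive range. GITR's own feature was lower than in naive adults both in neonates and in effector cells.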

How the results depend on the processing

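Over 51 pairs of a gene and a comparison in which it was called, 1373 values were recomputed, of which 1204 kept the call, 169 lost it and 0 reversed. Tnfrsf8, Tnfrsf4, Tnfsf4, Tnfsf8, Tnfsf10, Tnfsf13b and Tnfrsf18 were called in effector against naive adults in all 26 alternatives. Tnfrsf4 was called in neonates against naive adults in all 28, as were Tnfrsf8, Tnfsf8, Tnfsf10 and Tnfsf14 in neonates against effector adults. Losses of a member's call without 1 array are given beside the gene, and the cause was not tested.

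The members called in effector against naive adults numbered 13, and 8 with a 2-fold threshold. In neonates against naive adults they numbered 5, and 2 with array weights, 1 with only the arrays compared, 3 with a 2-fold threshold and 2 against adult females alone. In neonates against effector adults they numbered 7, and 4 with array weights or against adult males alone. Comparisons with adults of 1 sex were added after seeing the data. Without each array in turn the ranges were 11 to 14, 2 to 6 and 4 to 8. The 25 members above background became 24 to 25, and the comparisons of the sexes and of their responses stayed at 0 members called in every alternative.

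Of all genes, 5628 were called in effector against naive adults, and 1555 with a 2-fold threshold. In neonates against naive adults 1652 were called, and 705 with array weights, 676 with only the arrays compared, 632 with a 2-fold threshold, 935 against females alone and 1027 without neonate 1. In neonates against effector adults 3346 were called, and 2068 with array weights, 1081 with a 2-fold threshold, 1942 against females alone and 2067 without neonate 2. In naive females against males 34 became 8 to 330, and 16 to 84 without each array in turn. In effector females against males 5 became 8 with only the arrays compared and 11 with array weights. The difference of responses gave 0, and 1 to 67 in some alternatives, the highest (67, and 330 above) without neonate 2, naive male 1 and naive male 3, the 3 arrays least correlated with their groups, also added after seeing the data.

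Centring each array on its median moved the median of all genes from 0.03 to 0.17 in effector minus naive adults and the share of higher calls from 68.5% to 83.0%, with 12 members higher and 1 lower. In neonates minus effector adults the median moved from -0.03 to -0.14 and the share from 28.8% to 16.4%, with 2 members higher and 5 lower. With the replicate block, 12, 5 and 7 members were called in the 3 comparisons with all arrays, Tnfrsf9 being lost in effector against naive adults (adjusted p = 0.0506). Background correction and slide as a block were not run, since no scanner files were used here.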
